A study of Mus musculus with 4 samples.

Results

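This section describes 10 genes of the methionine cycle and of S-adenosylmethionine supply in male germ cells of the mouse. They are Mat1a, Mat2a, Mat2b, Ahcy, Ahcyl1, Ahcyl2, Mtr, Mtrr, Mtap and Gnmt. They were taken by symbol from a table of 36088 genes, and each of the 10 was found once. RNA was sequenced from wild-type germ cells that had been sorted from fetal testes in culture, and the titles give day 14. The cultures received CBR-5884 (2 libraries), an inhibitor of serine metabolism known to act on Phgdh, or the solvent DMSO (2 libraries), and the series asks how serine metabolism bears on male germ cell differentiation. The sources used here do not give the mouse strain, the dose and duration of CBR-5884, the marker used for sorting or any pooling of animals.

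The methionine cycle turns carbon that serine passes to folate into the methyl groups of the cell. Methionine synthase moves a methyl group from folate to homocysteine, methionine adenosyltransferase joins methionine to adenosine to make S-adenosylmethionine (SAM), and methyltransferases spend SAM on DNA, histones, RNA and small molecules. Each such reaction leaves S-adenosylhomocysteine, which inhibits methyltransferases until a hydrolase splits it into homocysteine and adenosine. Fetal male germ cells rebuild DNA methylation before birth, so they are known as cells with a demand for SAM.

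Expression is given as TPM, transcript abundance per length, so genes can be set side by side within a library. The TPM summed to 966761 in CBR-5884 library 4, against 997741 to 1002976 in the other libraries. Unless stated, values were not rescaled to equal totals. An estimated 22500000 to 28200000 reads stood behind each library. The 10 germ cell markers summed to 4126 and 3869 TPM in the CBR-5884 libraries, against 4013 and 4101 TPM in the DMSO libraries. Uchl1 (1252 to 1457 TPM) and Dazl (892 to 906 TPM) were the largest parts, so this sum does not describe single markers. Sertoli cell markers summed to 119 and 100 TPM with CBR-5884, against 140 and 76.2 TPM with DMSO, with Rhox5 at 0 in every library. Markers of peritubular and stromal cells summed to 46.6 to 56.1 TPM over the 4 libraries, those of blood and endothelium to 24.0 to 55.5 TPM and those of Leydig cells to 4.48 to 6.70 TPM. The table names the libraries by condition and the number 2 or 4, which are used here as library numbers. Which labelled replicate each is was not settled.

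None of the 10 genes passed the threshold between CBR-5884 and DMSO. Differences were tested with limma on log2(TPM + 1) over 14920 genes with a mean of at least 1 TPM, and a call needed a Benjamini-Hochberg adjusted p under 0.05. All 10 members passed the filter, 0 were called higher and 0 lower, and their smallest adjusted p was 0.998. Over all genes 0 were called in either direction (0%), with a smallest adjusted p of 0.0965. At an unadjusted p under 0.05 there were 0 of the 10 members, against 546 genes (3.66%) over the whole table, 1.51% higher and 2.15% lower with CBR-5884, and the smallest unadjusted p of a member was 0.11, of Ahcyl2. In TPM not rescaled to equal totals, the groups did not overlap for 5 members, against 31.3% of all genes. Of these 5, 3 lay higher with CBR-5884 (13.6% of all genes) and 2 lower (17.7%). Mtr is among the lower ones, and its groups overlap once library totals are made equal. With 2 libraries against 2, an exact permutation test of 1 gene cannot go below a two-sided p of 0.33, and the limma p-values rest on the spread between 2 libraries a group. In RNA from sorted cells in bulk, fewer cells of a type and less RNA per cell cannot be told apart.

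The levels of the 10 genes spanned a wide range and kept their order in all 4 libraries for most neighbours. Mtr averaged 274 TPM over the 4 libraries, Mat2b 92.5, Mat2a 79.0, Ahcyl1 78.5, Ahcyl2 51.5, Mtrr 34.5, Mtap 20.3, Ahcy 11.1, Gnmt 1.26 and Mat1a 1.16 TPM. Mat2a and Ahcyl1 overlapped in range, as did Gnmt and Mat1a, so neither pair can be ranked. The other 7 neighbouring pairs did not overlap in any library. The members summed to 634 and 649 TPM with CBR-5884, against 653 and 639 TPM with DMSO. The value of Ahcy is set by how reads were divided with a near-identical copy, described further on.

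**Figure D1:**
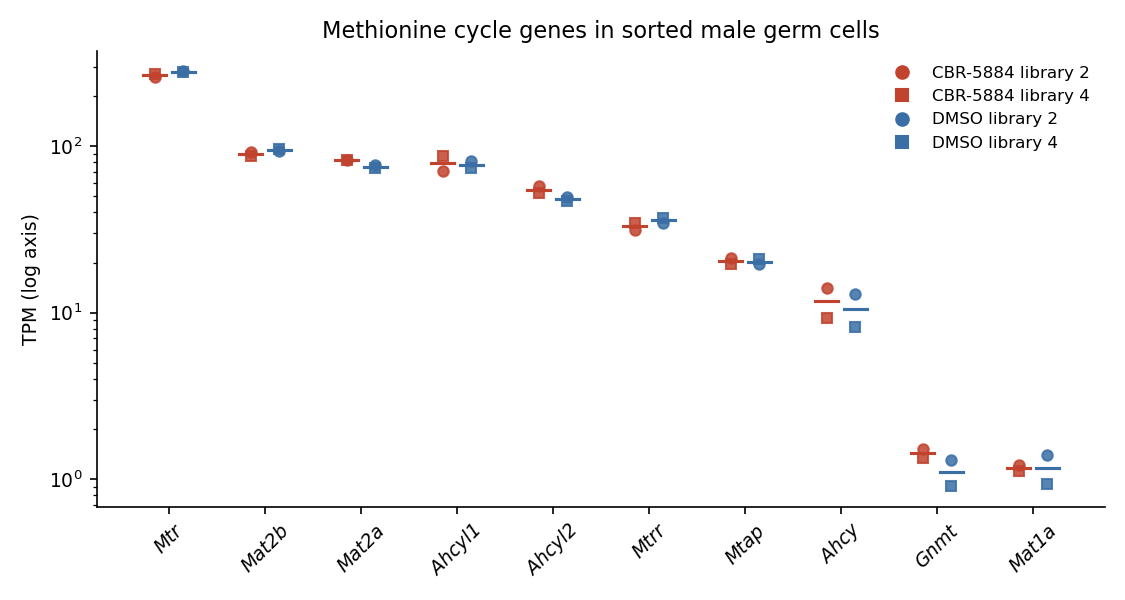
TPM of the 10 members on a log axis, with a point for each library (circles number 2, squares number 4) and a bar at each group's mean; CBR-5884 stands left of DMSO for each gene. Mtr is highest at 261 to 282 TPM, Gnmt and Mat1a lie near 1 TPM, and the groups lie close for every gene.

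Mat2a encodes the catalytic subunit of the methionine adenosyltransferase found in most tissues. It had 82.3 and 82.6 TPM in the CBR-5884 libraries, against 77.2 and 73.7 TPM in the DMSO libraries. Both CBR-5884 libraries were above both DMSO libraries. The log2 fold change was 0.13 (SE 0.08, 95% interval −0.07 to 0.32), and 14.3% of all tested genes had a smaller p. Its level was above that of 80.0% of tested genes. Dropping any 1 of the 4 libraries left it positive, at 0.09 to 0.16.

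Mat2a is known in human cells for hairpins in its 3' UTR that the methyltransferase Mettl16 binds, a route by which its mRNA responds to SAM. Matches to the core of that motif in the mouse gene are shown for this background, and their function was not tested. A search for TACAGAGAA and TACAGAAAA on the transcript strand of the mouse 3' UTR (1494 bases, GENCODE M21 on GRCm38) found 6 matches, 5 of the first and 1 of the second. Capitals mark the motif, written as DNA, and each line is the minus strand of chromosome 6, 5′ to 3′.
Site 1, chr6:72434234-72434263: tggcgtaggtTACAGAGAAgccttcaagct
Site 2, chr6:72433450-72433479: ccttgtgataTACAGAGAAgtcacagggca
Site 3, chr6:72433271-72433300: ctggtgtagcTACAGAGAAaccagcttcct
Site 4, chr6:72433156-72433185: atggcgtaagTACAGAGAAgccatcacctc
Site 5, chr6:72433045-72433074: caaggtgtccTACAGAAAAaccttgggtta
Site 6, chr6:72432937-72432966: gctggtgtggTACAGAGAAgccagcttgtt
The other strand held 0 matches. Among 7486 other genes whose 3' UTR is at least as long, read over the same 1494 bases, 4.07% held at least 1 match and 0.0801% at least 2. The highest number in any of them was 2. A match of letters is a description and not a measured binding site.

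Mettl16 itself had 135 and 136 TPM with CBR-5884, against 144 and 147 TPM with DMSO. It was picked out after its values were seen, for this tie to Mat2a. Both CBR-5884 libraries were below both DMSO libraries, with a log2 fold change of −0.10 (95% interval −0.28 to 0.07; limma unadjusted p = 0.2).

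Mat2b encodes the regulatory subunit that binds the Mat2a enzyme. It had 92.6 and 87.1 TPM with CBR-5884, against 93.6 and 96.4 TPM with DMSO. The CBR-5884 libraries were the lower ones, with no overlap, and the log2 fold change was −0.08 (SE 0.08, 95% interval −0.28 to 0.12). It stayed negative with any 1 library dropped, from −0.12 when CBR-5884 library 2 was left out to −0.04 when CBR-5884 library 4 was. The ratio of Mat2a to Mat2b level was 0.888 and 0.949 in the CBR-5884 libraries, against 0.825 and 0.765 in the DMSO libraries. All 4 ratios were below 1. The 2 groups of ratios did not overlap, which follows from the separation of the 2 genes in opposite directions and adds no further result.

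Mat1a encodes the liver form of the synthetase. It had 1.21 and 1.12 TPM with CBR-5884, against 1.4 and 0.932 TPM with DMSO, so the DMSO libraries spanned both CBR-5884 values. Mat2a made up 98.6 and 98.7% of the summed TPM of the catalytic genes Mat1a and Mat2a with CBR-5884, against 98.2 and 98.8% with DMSO. The log2 fold change of Mat1a was 0.01 with a 95% interval of −0.73 to 0.74, and its sign was not stable. It was −0.02 without CBR-5884 library 2, −0.15 without DMSO library 4, −0.01 with median centring and −0.03 with quantile normalization. The 4 liver markers Alb, Apoa1, Ttr and Cps1 summed to 1.01 and 0.623 TPM with CBR-5884, against 0.672 and 0.304 TPM with DMSO.

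Ahcy encodes the hydrolase that removes S-adenosylhomocysteine. It had 14.1 and 9.26 TPM with CBR-5884, against 13 and 8.17 TPM with DMSO. Each condition had 1 high and 1 low library, and in both the library numbered 2 was the high one. The log2 fold change was 0.14 (SE 0.28, 95% interval −0.55 to 0.82). It turned to −0.14 without CBR-5884 library 2 and to −0.17 when DMSO library 4 was left out, and it was 0.41 if CBR-5884 library 4 was dropped and at 0.44 if DMSO library 2 was. The summed Sertoli markers given above were also higher in the library numbered 2 of each condition, and their part in the Ahcy values was not tested.

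Most of the hydrolase sequence in the table was assigned to a copy, not to Ahcy. Gm4737 is annotated as a protein-coding gene with a single exon (chromosome 16, 46152985 to 46155077, minus strand). It is called a retrocopy here because of that single exon and the alignment below. Its level was 188 and 195 TPM with CBR-5884, against 203 and 228 TPM with DMSO. Ahcy (chromosome 2, 155059310 to 155074497, minus strand) therefore held 6.97 and 4.53% of the pair with CBR-5884, against 6.01 and 3.46% with DMSO. The Gm4737 transcript (2093 bases) aligned to the reference Ahcy transcript (2543 bases, 10 exons) over 2083 bases with no gap and 6 differences, an identity of 99.7%. Both have a coding length of 1296 bases, and 4 of the differences lie in it. Of the 31-base words of Ahcy transcripts, 71.4% also occurred in other genes of the table, and 68.7% in Gm4737. Of the words of the Gm4737 transcript, 93.2% occurred in that Ahcy transcript, which runs on for 419 bases beyond the aligned stretch at its 3' end.

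The stretches that separate the copies are shown because only reads across such bases, or beyond the aligned part, can tell Ahcy from Gm4737. Capitals mark the differing bases, at positions 459 and 474 of the coding sequence in the upper pair and at 1050 and 1068 in the lower pair. All lines are minus strand, GENCODE M21 on GRCm38, 5′ to 3′.
Ahcy, chr2:155064886-155064926: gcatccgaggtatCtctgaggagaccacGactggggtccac
Gm4737, chr16:46154527-46154567: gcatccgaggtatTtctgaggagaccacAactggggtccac
Ahcy, chr2:155062237-155062277: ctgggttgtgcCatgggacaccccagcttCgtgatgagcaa
Gm4737, chr16:46153934-46153974: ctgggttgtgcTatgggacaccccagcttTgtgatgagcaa
Each window lies within 1 exon of Ahcy. The division of reads between the copies is uncertain, so the values of both are also given as a sum.

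The sum of Ahcy and Gm4737 was 202 and 205 TPM with CBR-5884, against 216 and 236 TPM with DMSO. Both CBR-5884 libraries were below both DMSO libraries. Within each condition the library numbered 2 had the lower sum, the opposite of Ahcy alone. With the sum in place of Ahcy, an alternative added after the data were seen, the log2 fold change was −0.15 (SE 0.08, 95% interval −0.34 to 0.04; limma adjusted p = 0.998). It lay between −0.22 and −0.09 when 1 library was left out. The sign was thus opposite to that of Ahcy alone, and neither passed the threshold. By the sum, hydrolase sequence stood next to Mtr in level and above Mat2b. The ratio of Mat2a to Ahcy alone was 5.84 and 8.93 with CBR-5884, against 5.96 and 9.02 with DMSO. These ratios overlapped, and their log2 difference of −0.02 ranged from −0.36 without CBR-5884 library 4 to 0.31 without DMSO library 4. The ratio of Mat2a to the sum was 0.407 and 0.404 with CBR-5884, against 0.358 and 0.312 with DMSO. The lack of overlap follows from Mat2a being higher and the sum lower in both CBR-5884 libraries. The ratio to the sum was also chosen after the data were seen.

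**Figure D2:**
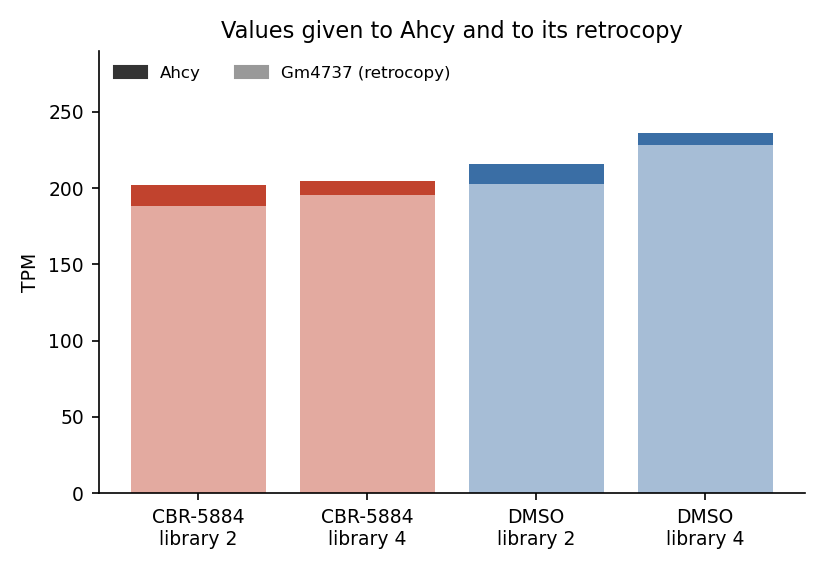
TPM given to Ahcy (dark, upper part of each bar) and to its retrocopy Gm4737 (light) in each library. Ahcy holds 3.46 to 6.97% of the pair, and both CBR-5884 sums, 202 and 205 TPM, are below the DMSO sums of 216 and 236 TPM.

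Ahcyl1 encodes IRBIT, a relative of the hydrolase that is known for binding the inositol trisphosphate receptor and not for splitting S-adenosylhomocysteine. It had 71.5 and 87.5 TPM with CBR-5884, against 81.1 and 73.8 TPM with DMSO. The CBR-5884 libraries held both the lowest and the highest value. The log2 fold change was 0.03 (95% interval −0.26 to 0.33), which became −0.11 when CBR-5884 library 4 was left out and −0.04 when DMSO library 4 was. None of its 31-base words occurred in another gene.

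Ahcyl2, the other IRBIT-like gene, had the smallest unadjusted p of the 10. It had 57.5 and 52.3 TPM with CBR-5884, against 49.6 and 46.8 TPM with DMSO. Both CBR-5884 libraries were above both DMSO libraries. Its log2 fold change was 0.18 (SE 0.10, 95% interval −0.06 to 0.42), and 8.74% of tested genes had a smaller p. It stayed positive with each library left out, at 0.12 to 0.25. Ahcyl2 was below Ahcyl1 in every library, with a ratio of 0.804 and 0.597 with CBR-5884, against 0.611 and 0.635 with DMSO.

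Mtr, methionine synthase, was the most abundant of the members, above 96.0% of tested genes. It had 261 and 273 TPM with CBR-5884, against 282 and 281 TPM with DMSO. In TPM not rescaled to equal totals, the CBR-5884 libraries were below the DMSO libraries, by a log2 fold change of −0.07 (SE 0.07, 95% interval −0.25 to 0.10). Its interval was the narrowest of the 10, and none of its 31-base words occurred in another gene. Leaving out 1 library gave −0.11 to −0.04, equal library totals gave −0.05 and quantile normalization −0.03. CBR-5884 library 4, the closer to DMSO, had the lowest TPM total (966761). Scaled to equal totals, CBR-5884 library 4 lies above both DMSO libraries and CBR-5884 library 2 below them. The separation of the Mtr groups therefore holds only in TPM that is not rescaled.

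Mtrr encodes the reductase that restores the cobalamin cofactor of methionine synthase. It had 31.3 and 34.8 TPM with CBR-5884, against 34.7 and 37.2 TPM with DMSO. CBR-5884 library 4 reached the level of DMSO library 2, so the groups overlapped. On the log2 scale the fold change was −0.12 (SE 0.11, 95% interval −0.39 to 0.15), with −0.05 when CBR-5884 library 2 was left out and −0.19 when CBR-5884 library 4 was. The Mtr mRNA level was 8.32 and 7.87 times that of Mtrr with CBR-5884, against 8.13 and 7.53 times with DMSO, ratios that overlapped between groups. Both genes lie on chromosome 13, Mtr at 12182712 to 12258113 and Mtrr at 68560780 to 68582149.

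Mtap encodes methylthioadenosine phosphorylase, which begins the salvage of methionine from the by-product of polyamine synthesis. It had 21.2 and 19.5 TPM with CBR-5884, against 19.5 and 20.9 TPM with DMSO. The groups interleaved, and the difference on the log2 scale was 0.01 (95% interval −0.30 to 0.32), and it was −0.05 without CBR-5884 library 2, −0.04 without DMSO library 2 and −0.003 with median centring.

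Gnmt encodes glycine N-methyltransferase, which in liver spends SAM on glycine. It had 1.52 and 1.33 TPM with CBR-5884, against 1.3 and 0.907 TPM with DMSO. The CBR-5884 libraries were higher without overlap, the closest pair being 1.33 and 1.3 TPM. The log2 fold change was 0.21 with a wide 95% interval of −0.51 to 0.93. At this level a pseudocount of 1 shrinks the change, and with a pseudocount of 0.1 TPM it was 0.36. It was 0.08 when DMSO library 4 was left out and 0.35 when DMSO library 2 was.

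Across the 10 members, 7 fold changes were positive and 3 negative, against 7035 positive and 7885 negative over all tested genes. Ahcy is among the 7, and it turns negative when summed with Gm4737. The median was 0.02 for the members and −0.01 over all tested genes. The median size without sign was 0.10 for the members and 0.11 over all genes. For 7 of the 10 members, the 95% interval of the log2 fold change lay within 1.5-fold in both directions, against 58.3% of all tested genes. The exceptions were Mat1a, Gnmt and Ahcy. The groups are not shown to be alike by a p above the threshold, and the intervals give the sizes these libraries leave possible.

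**Figure D3:**
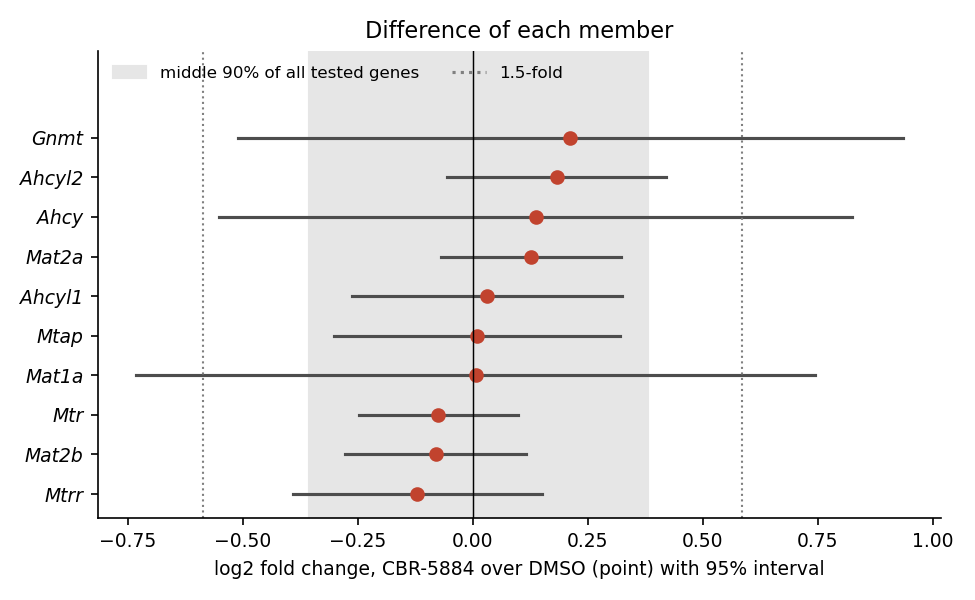
Log2 fold change of each member, CBR-5884 over DMSO, with its 95% interval from limma; the grey band holds the middle 90% of all 14920 tested genes and dotted lines mark 1.5-fold. All 10 intervals include 0, and those of Mat1a, Gnmt and Ahcy reach past 1.5-fold.

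**Figure D4:**
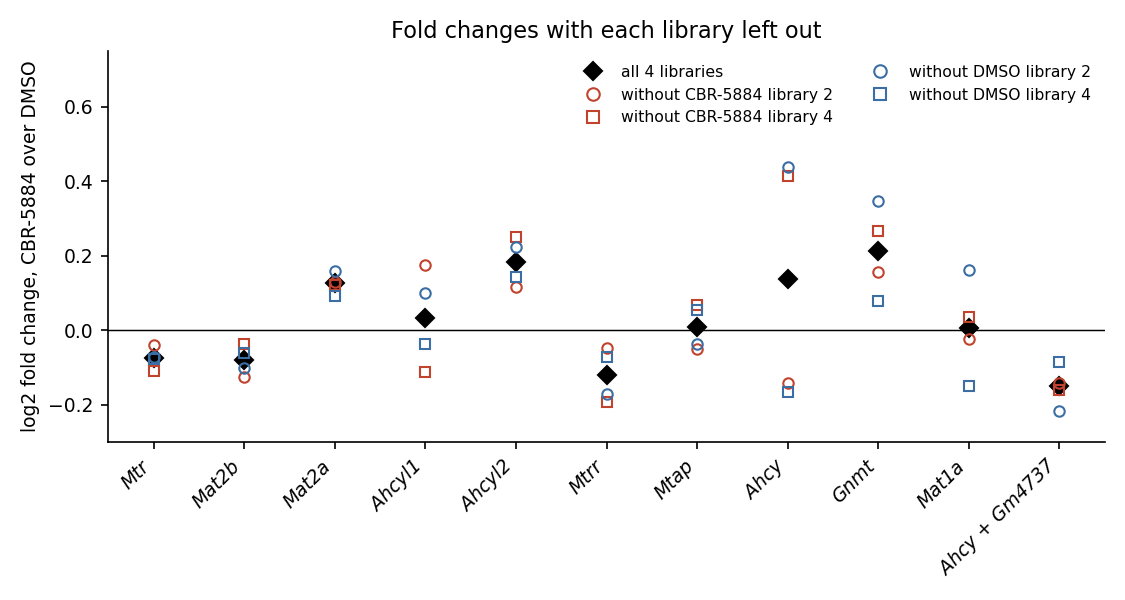
Log2 fold change of each member, and of the sum of Ahcy and Gm4737, with all 4 libraries (diamonds) and with each library left out (open symbols). Ahcy spans −0.17 to 0.44, while Mat2a stays at 0.09 to 0.16 and the sum at −0.22 to −0.09.

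Other sequence features varied among the members. Besides Ahcy, words shared with other genes made up 9.15% of Mat2a, all with the processed pseudogene Gm9523, which had at most 0.254 TPM in any library. They made up 1.81% of Mtrr, 0.845% of Mtap, 0.398% of Mat2b and 0.157% of Ahcyl2, and 0% of Mat1a, Ahcyl1, Mtr and Gnmt. Exons of Mat2a overlap the antisense gene Particl over 508 bases, and Ahcyl2 overlaps 4930528J11Rik over 288 bases on the opposite strand. The sources used here do not say whether strand was used, so reads of these stretches cannot be assigned to a strand. RefSeq promoters (GRCm38.p6, 250 bases before to 50 after the start) matched 9 members, and Mat1a had no entry. The letters CG, the same on both strands, occurred 34 times in that of Mat2a, 24 in Mtr, 19 in Mat2b, 14 in Mtap, 13 in Ahcy and 11 in Gnmt, each with 1 entry, against a median of 7 over 32851 promoters. Of the members with several entries, Ahcyl1 had 23, 46 and 29, Mtrr had 37 and 39, and Ahcyl2 had 28, 5 and 2, so that 2 of its 3 promoters were below that median.

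In 6 further lists of genes at neighbouring steps, 40 of the 50 genes in the table passed the filter, and limma called 0 of them (0%). At an unadjusted p under 0.05 there was 1, Adk, against 3.66% of all genes. The groups did not overlap for 12 of the 40, 5 higher (13.6% of all genes) and 7 lower (17.7%). Their log2 fold changes ran from −0.55 to 0.48, against −0.12 to 0.21 for the members. A range over 40 genes tends to be wider than 1 over 10. The ends are Ada, where DMSO library 4 alone was high, and Slc1a5, at 0.17 without CBR-5884 library 4. The lists were not tested against the members.

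Of the remethylation and cobalamin cofactor genes, 9 of 12 were tested and 8 of these had a fold change above 0. The median was 0.10. Mmadhc, which directs cobalamin towards its enzymes, had 96.5 and 96.4 TPM with CBR-5884, against 91.2 and 85.2 TPM with DMSO. Cd320, the receptor that takes up cobalamin on transcobalamin, had 58.8 and 66.7 TPM with CBR-5884, against 52.5 and 60.7 TPM with DMSO. Bhmt, of the betaine route to methionine, was low in every library. It had 0.218 and 0.230 TPM with CBR-5884, against 0.290 and 0.223 TPM with DMSO. The related gene Bhmt2 had 1.12 and 1.08 TPM with CBR-5884, against 0.793 and 0.871 TPM with DMSO. Both genes were below the filter and were not tested.

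Of 8 methionine salvage genes, 6 had a negative fold change and the median was −0.09. Enoph1, a salvage enzyme downstream of Mtap, had 50.1 and 45.4 TPM with CBR-5884, against 56.8 and 55.4 TPM with DMSO. Its groups did not overlap, and its log2 fold change was −0.23 (95% interval −0.46 to 0.003; limma unadjusted p = 0.0521). Apip, another enzyme of that route, had 69.5 and 57.2 TPM with CBR-5884, against 65.5 and 71.9 TPM with DMSO. Its log2 fold change was −0.12, or 0.02 without CBR-5884 library 4. Kyat1, an aminotransferase, had 12 and 12.6 TPM with CBR-5884, against 13.6 and 14.9 TPM with DMSO.

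**Figure D5:**
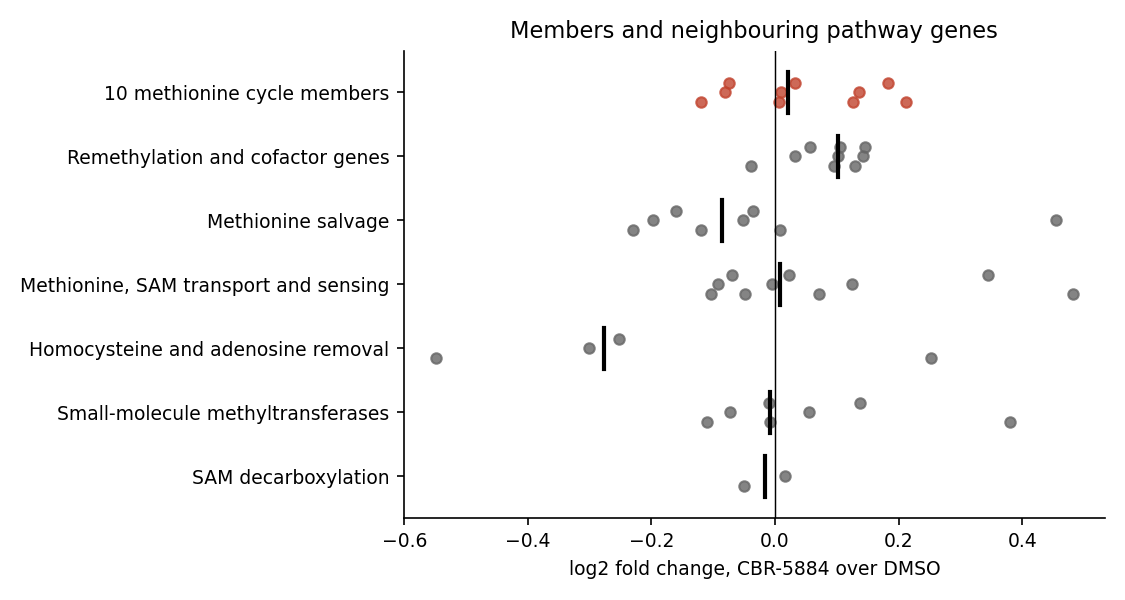
Log2 fold changes, CBR-5884 over DMSO, of the 10 members (red) and of the tested genes of 6 neighbouring lists (grey), each gene a point and each list's median a bar. The members lie between −0.12 and 0.21, and list medians between −0.28 (4 tested genes) and 0.10 (9 tested genes).

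Transporters of methionine and SAM and their sensors had 5 positive and 5 negative fold changes among 10 tested genes, with a median of 0.01. Slc3a2 and Slc7a5, the heavy and light chains of the main transporter of large neutral amino acids, were abundant. Slc3a2 had 301 and 287 TPM with CBR-5884, against 302 and 259 TPM with DMSO, and its log2 fold change of 0.07 became −0.04 without DMSO library 4. Slc7a5 had 191 and 185 TPM with CBR-5884, against 193 and 184 TPM with DMSO, and its log2 fold change of −0.01 had either sign among the alternatives. Slc43a2, another carrier of large neutral amino acids, had 19.5 and 16.9 TPM with CBR-5884, against 15 and 13.2 TPM with DMSO. Both CBR-5884 libraries were the higher ones (log2 fold change 0.34, 95% interval −0.02 to 0.71; limma unadjusted p = 0.0626). Slc1a5, a carrier of neutral amino acids, had 21.3 and 33.5 TPM with CBR-5884, against 18.4 and 19.3 TPM with DMSO. Its log2 fold change of 0.48 was 0.17 without CBR-5884 library 4.

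The products of the hydrolase, homocysteine and adenosine, have their own removal genes, 4 of 6 tested. Adk, adenosine kinase, had 52.7 and 60.1 TPM with CBR-5884, against 47.6 and 46.6 TPM with DMSO. Its log2 fold change was 0.25 (95% interval 0.002 to 0.50; limma unadjusted p = 0.0485, adjusted p = 0.998), and both CBR-5884 libraries were the higher ones. The value was 0.16 when CBR-5884 library 4 was left out and 0.35 when CBR-5884 library 2 was. Pnp, which breaks down purine nucleosides, had 21.7 and 16.8 TPM with CBR-5884, against 22.9 and 22.9 TPM with DMSO, and it has the paralog Pnp2 at up to 1.32 TPM. CBR-5884 library 4 was the lowest of the 4, and the Pnp log2 fold change of −0.25 was −0.08 without it. The list median of −0.28 rests on 4 tested genes, and the 3 besides Adk were negative. One of these 3 is Ada, at 1.06 and 1.28 TPM with CBR-5884, against 1.12 and 3.73 TPM with DMSO. Its groups overlapped at these low values, and only DMSO library 4 stood apart. Cbs, the first enzyme that takes homocysteine to cysteine, had 0.529 and 0.868 TPM with CBR-5884, against 0.813 and 0.997 TPM with DMSO, below the filter.

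The list of small-molecule methyltransferases that compete for SAM had 3 positive and 4 negative fold changes among 7 tested genes. Their median was −0.01, and the list also holds Icmt, which acts on proteins. Icmt, which methylates prenylated proteins at their end, had 42.9 and 41.7 TPM with CBR-5884, against 44.6 and 44.4 TPM with DMSO. Coq5, a methyltransferase of ubiquinone synthesis, had 41.6 and 44.6 TPM with CBR-5884, against 43.5 and 49.8 TPM with DMSO. Gamt, which makes creatine, had 12.6 and 9.71 TPM with CBR-5884, against 9.87 and 6.95 TPM with DMSO. The groups overlapped, and its log2 fold change of 0.38 was as low as 0.15, when DMSO library 4 was left out, and as high as 0.61, when DMSO library 2 was.

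SAM decarboxylation, which commits SAM to polyamines, was represented by Amd1 and Amd2. Sequence shared between this pair was not measured, so how reads were divided between them was not tested. Amd1 had 118 and 104 TPM with CBR-5884, against 117 and 112 TPM with DMSO. Its log2 fold change of −0.05 was 0.04 without CBR-5884 library 4. Amd2 had 3.43 and 2.20 TPM with CBR-5884, against 3.52 and 2.06 TPM with DMSO, with the library numbered 2 the higher one in both conditions. Its log2 fold change of 0.02 was −0.22 without CBR-5884 library 2, −0.26 without DMSO library 4 and −0.01 with quantile normalization.

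The genes closest in pattern to Mat2a and Ahcy were sought by the root mean square difference of centred log2(TPM + 1) over the 4 libraries, among named genes within 2-fold of the member's mean level. For Mat2a these were Mta2 (difference 0.0055), Erf (0.0077) and Gorasp2 (0.0111) among 3908 candidates. Mta2 had 109 and 110 TPM with CBR-5884, against 103 and 97.7 TPM with DMSO. For Ahcy they were Pde4c (0.0236), Ggh (0.0269) and Dbndd1 (0.0300) among 3205 candidates. Ggh had 10.5 and 6.97 TPM with CBR-5884, against 9.54 and 6.29 TPM with DMSO, with the high library numbered 2 in both conditions as for Ahcy. With 4 libraries and so many candidates, such likeness is a description only.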

How the data were processed

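TruSeq RNA libraries were built from 100 ng of RNA isolated with RNeasy micro columns, and the design text names 2 biological replicates per condition. The tools fastp and kallisto and the build mm10 were used, per the submitters' processing notes, and the sources used here give no versions. Each gene has in the deposited table a TPM and a value in scaled reads per base, per the file headers, both treated as signal values and not counts. The TPM summed to 966761 to 1002976 per library. Of low values, 48.1 to 49.8% of 1-transcript genes were whole multiples of a step (tolerance 0.05), so reads were not recovered and no count test was run. Depth was estimated from that step.

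One value per gene and library was kept. log2(TPM + 1) was compared with limma 3.58.1 (trend, two-sided, R 4.3.3), CBR-5884 minus DMSO, over 14920 genes with a mean of at least 1 TPM, and 21168 genes were not tested. A fold change on this scale understates that of low genes. The fit was tested on simulated data. Conditions came from the library names and labels, and which labelled replicate a library is was not settled. Positions and transcripts came from GENCODE M21 on GRCm38 (mm10), promoters from RefSeq GRCm38.p6, and alignments from Biopython 1.88. Coordinates are 1-based.

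The members and lists were chosen with earlier results of these data known. Genes named beside the members are, per list, the 2 with the highest mean TPM and the 2 with the smallest unadjusted p, and for Mat2a and Ahcy the 3 nearest patterns among genes within 2-fold of their level, without predicted genes, Rik clones and pseudogenes. Mettl16, Ada and genes named as below the filter stand outside that rule. Alternatives were other pseudocounts, filters, scalings, variance models, the scaled reads, a replicate block and leaving out each library.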

Additional observations from a re-analysis of the deposited data

How the results depend on the processing

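No member was called by limma under any alternative, and the smallest adjusted p of a member among them was 0.786. Over all genes the count of calls moved only with the scaled reads (1 gene, Hspa1b, lower) and with robust variance estimates (1 gene with no symbol, higher), against 0 otherwise. With the replicate block, calls stayed at 0 for members, lists and all genes, and 797 genes had an unadjusted p under 0.05, against 546. The block rests on a shared number only, since the deviations of same-numbered libraries correlated at 0.20 over 14920 genes and there are 2 pairs. Log2 fold changes that turned sign with all libraries were those of Mat1a (−0.0054 with median centring, −0.031 with quantile normalization), Mtap (−0.0029 with median centring), Ahcy summed with Gm4737 (−0.15), Slc7a5 (0.021 with equal totals, 0.036 with quantile normalization) and Amd2 (−0.0086 with quantile normalization). With 1 library left out, the lone library of a group being assumed to vary like the other group, log2 fold changes spanned 0 for Mat1a (−0.15 to 0.16), Ahcy (−0.17 to 0.44), Ahcyl1 (−0.11 to 0.18), Mtap (−0.049 to 0.068), Apip (−0.26 to 0.018), Slc3a2 (−0.040 to 0.18), Slc7a5 (−0.038 to 0.027), Amd1 (−0.14 to 0.037), Amd2 (−0.26 to 0.30), Pde4c (−0.16 to 0.39), Ggh (−0.14 to 0.40) and Dbndd1 (−0.14 to 0.40). On the log2 scale the sum of Mat1a and Mat2a then differed by 0.089 to 0.16, that of Mtr and Mtrr by −0.12 to −0.042, and the ratio of Ahcyl2 to Ahcyl1 by −0.060 to 0.37. The cause of these shifts was not tested. Mat1a and Gnmt gave no value at a minimum mean of 5 TPM. With 2 libraries a group, the 95% intervals of Mat1a, Gnmt and Ahcy leave differences past 1.5-fold possible.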
